A study of Mus musculus with 16 samples.

Results

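Reduced representation bisulfite sequencing (RRBS) was used to compare E14 mouse embryonic stem cells (mESCs) of old passage (OP-mESCs, 2 libraries) with E14 mESCs of young passage (YP-mESCs, 2 libraries), which were 4 of the 16 libraries of the study. Both groups were the same 129/Ola-derived line, carried no transgene or shRNA, and were kept undifferentiated in serum and LIF on gelatin. YP-mESCs were at passage 14, whereas OP-mESCs came from prolonged culture of the same line. The other libraries held OP-mESCs with a stabilised β-catenin (S33Y) and cells with a control or a β-catenin shRNA, and the study asked how low Wnt/β-catenin activity in OP-mESCs relates to DNA methylation. Replicates were labelled only by number. The study calls them biological replicates but does not say whether they were separate cultures, so they may be libraries of 1 culture. The p-values below cover at most the spread between these libraries. For single CpGs, the reads of a group were pooled, with 1 overdispersion shared by all CpGs in place of each CpG's own spread. A CpG entered when both strands together had at least 10 reads in each of the 4 libraries, which left 365703 CpGs of the 1249278 that reached 10 reads in any of 10 undifferentiated mESC libraries. Passage number was the only labelled difference between the groups, so it cannot be told apart from any other difference between these cultures.

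In mammals, DNA methylation is found mainly at CpG dinucleotides. Dnmt1, guided by Uhrf1 to newly copied DNA, restores it on the daughter strand, while Dnmt3a and Dnmt3b add it to unmethylated sites and Tet enzymes oxidise it. Methylation of a cell population at a CpG therefore depends on how completely it is copied, added and removed at each division. CpG islands at most promoters are unmethylated, gene bodies and intergenic DNA are mostly methylated, and germline genes with CpG-rich promoters are a known class that stem cells and somatic cells keep methylated. Mouse ESCs grown in serum keep high methylation outside CpG islands. RRBS reads the ends of short restriction fragments after bisulfite treatment, which converts cytosine to uracil unless it is methylated, and the percent of reads left with cytosine at a site is its methylation level.

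The 4 libraries had 18919219 to 28814526 reads on CpGs and 413282 to 881356 CpGs, with a median of 23 to 36 reads per CpG. The fewest CpGs were in OP-mESC replicate 2. Chromosome 13 was missing from YP-mESC replicate 2 and was compared in 3 libraries only. At 10 reads a single CpG moves in steps of 10 points, and such values cover counting error only. Mitochondrial CpGs, which should be unmethylated, read 0.242% to 0.374% methylated. The promoters of the pluripotency genes Pou5f1, Sox2, Esrrb and Utf1 were at 0.114% to 2.11% in all 4 libraries, and that of the trophoblast gene Elf5 at 89.9% to 91.5%, the state known from mESCs. At the start of the fibroblast marker Vim the promoter was at 1.62% and 2.5% in YP-mESCs and at 0% of 275 and 152 reads in OP-mESCs. Around another Vim start, inside the gene, it was 65.5% and 58.5% in YP-mESCs and 67.1% and 69.6% in OP-mESCs.

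The sequences below are a choice from the largest differences described further on, without the largest fall, at Plagl1. They are shown because they include CpG-poor introns, coding sequence, a germline promoter and intergenic DNA. They are the plus strand of the mm9 reference genome, in lower case, with the CpGs that were called different between the groups in capitals. The first 4 fell and the next one rose, all within 1 kb of an annotated transcription start. They are an intron of Mybl2 at chr2:162900594-162900667, an intron of Tex19.1 at chr11:121007562-121007762, a coding exon and its splice donor in Cdca7 at chr2:72322667-72322815, an intron of Sohlh2 at chr3:54986250-54986469 and the DNA just before the start of Clcn4-2 at chr7:7252281-7252351.
Mybl2: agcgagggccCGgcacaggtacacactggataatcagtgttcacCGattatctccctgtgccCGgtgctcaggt
Tex19.1: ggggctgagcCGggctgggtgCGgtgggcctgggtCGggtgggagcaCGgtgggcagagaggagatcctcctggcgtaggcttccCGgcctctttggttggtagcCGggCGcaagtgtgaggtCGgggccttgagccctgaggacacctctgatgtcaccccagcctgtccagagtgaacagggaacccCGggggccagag
Cdca7: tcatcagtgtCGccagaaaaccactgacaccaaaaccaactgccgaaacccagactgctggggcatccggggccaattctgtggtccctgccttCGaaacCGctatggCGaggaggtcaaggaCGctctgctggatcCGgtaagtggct
Sohlh2: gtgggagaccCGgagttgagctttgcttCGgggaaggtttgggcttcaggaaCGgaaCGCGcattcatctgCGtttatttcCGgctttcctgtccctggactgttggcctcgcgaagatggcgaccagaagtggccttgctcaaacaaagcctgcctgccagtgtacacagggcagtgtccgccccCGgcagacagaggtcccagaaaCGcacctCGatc
Clcn4-2: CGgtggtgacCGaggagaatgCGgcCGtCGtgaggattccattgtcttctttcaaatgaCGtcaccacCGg

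Outside promoters, windows from 2 stretches that fell and 2 that rose are shown. Those that fell lie in introns of Slc38a1 at chr15:96428735-96428788 and of Rnf220 at chr4:117032901-117032991. Those that rose are intergenic, at chr5:74383442-74383524 and chr1:47238172-47238253.
Slc38a1 intron: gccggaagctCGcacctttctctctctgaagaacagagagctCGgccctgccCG
Rnf220 intron: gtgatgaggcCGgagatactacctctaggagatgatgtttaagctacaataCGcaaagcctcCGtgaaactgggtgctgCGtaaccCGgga
chr5 intergenic: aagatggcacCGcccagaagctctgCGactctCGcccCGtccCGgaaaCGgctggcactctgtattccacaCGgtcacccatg
chr1 intergenic: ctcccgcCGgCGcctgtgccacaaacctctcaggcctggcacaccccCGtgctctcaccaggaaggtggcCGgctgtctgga

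Mean methylation over the 365703 CpGs was 24.4% in both YP-mESC libraries and 21.04% and 21.12% in the OP-mESC libraries. The groups did not overlap, and the difference of -3.32 points was larger than its SD of 0.0604 points between libraries. With CpGs weighted by their reads it was -5.74 points. With 2 libraries against 2, an exact two-sided permutation test gives p = 0.333, the smallest it can give. Most of these CpGs had little to lose in points, since 65.2% of them were below 10% in YP-mESC replicate 1. The 89630 CpGs at 60% or more in that library (24.5% of all), called methylated CpGs below, were at 83.1% in YP-mESC replicate 2 and at 75.1% and 75.4% in OP-mESCs. They differed by a mean of -7.85 points and had 90.6% of their level left. Together they held 57.8% of the summed difference.

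To ask whether the loss was even, CpGs were binned by YP-mESC replicate 1, and the OP-mESC mean was compared with YP-mESC replicate 2, which had not set the bins. Every such value below is this difference, in percentage points, with the SD of the 2 OP-mESC libraries. These strata are descriptions without a test. The difference was largest in points at half-methylated CpGs and largest in proportion at CpGs with little methylation. CpGs that started at 50% to 60% were at 56.5% in YP-mESC replicate 2 and at 41.6% and 41.3% in OP-mESCs, a difference of -15.1 ± 0.216 points (n = 2 libraries). Those that started at 80% to 90% differed by -7.19 ± 0.222 points and those at 90% to 100% by -4.73 ± 0.158 points. At the other end, CpGs of 10% to 20% went from 14.2% in YP-mESC replicate 2 to 6.26% in both OP-mESC libraries, so that 44.1% of their level was left. The share left was higher in each bin above that, from 55.8% at 20% to 30% through 69.8% at 40% to 50% and 79.8% at 60% to 70% to 94.7% at 90% to 100%. Below 10% the mean was 0.951% in YP-mESC replicate 2 and 0.630% and 0.635% in OP-mESCs.

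**Figure D1:**
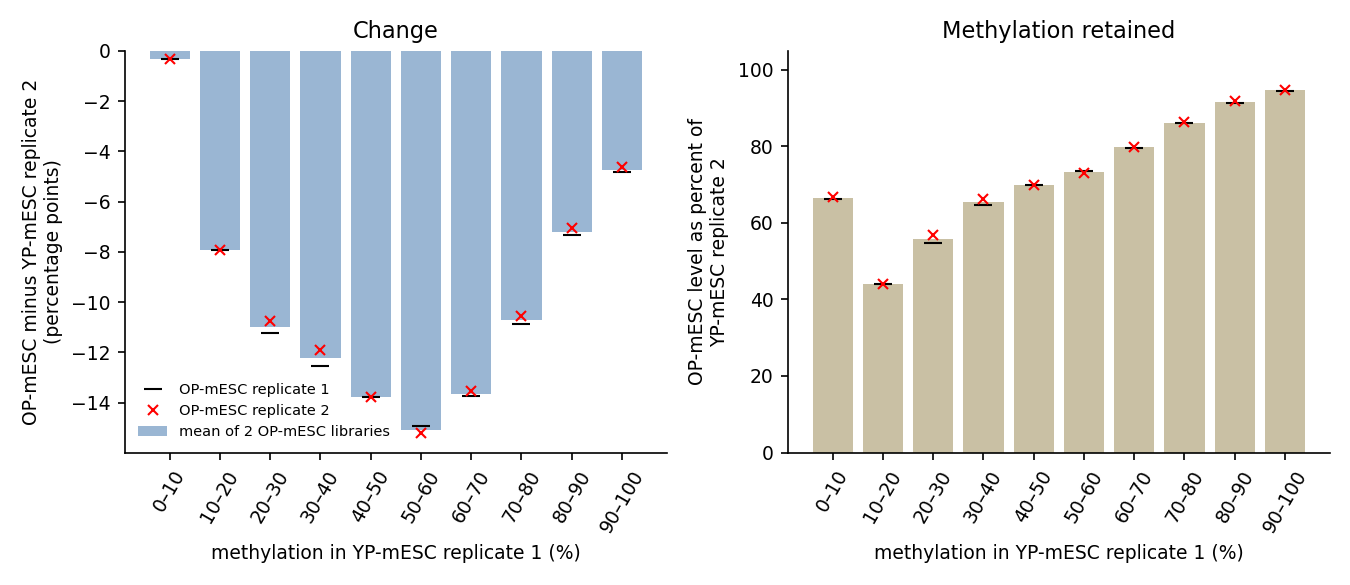
Difference between OP-mESCs and YP-mESC replicate 2 in percentage points (left) and the OP-mESC level as a percent of YP-mESC replicate 2 (right), for CpGs binned by methylation in YP-mESC replicate 1. Bars are the mean of the 2 OP-mESC libraries, dashes and crosses each library. The difference is largest at 50% to 60% (-15.1 points) and the share left lowest at 10% to 20% (44.1%).

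The same order held for large single differences. A level lower by more than 25 points was seen at 28.2% of the CpGs that started at 50% to 60%, at 6.65% of those at 80% to 90% and at 3.35% of those at 90% to 100%. A level higher by more than 25 points was seen at 1.75%, 0.293% and 0.185% of them, and the bins of 30% to 40% and 40% to 50% had the most, at 3.17% and 3.18%. The many CpGs of 80% to 90% still held the largest part of the summed difference, 20.8%, against 9.18% for those of 50% to 60%.

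By place, a CpG within 1 kb of an annotated start was called promoter, and the others exon, intron or intergenic. Promoter CpGs were mostly unmethylated, with 4.71% in both YP-mESC libraries and 3.74% and 3.76% in OP-mESCs. Exons went from 50.8% and 50.9% to 43.9% in both, introns from 60.3% in both to 52.3% and 52.6%, and intergenic DNA from 55.7% and 55.8% to 49.0% and 49.2%. Among methylated CpGs the places were much closer. The difference was -8.57 ± 0.183 points in promoters (8027 CpGs), -8.15 ± 0.255 in introns, -7.67 ± 0.208 in intergenic DNA and -7.26 ± 0.0433 in exons. It was -9.74 ± 0.319 points within 100 bases of a start and -6.90 ± 0.250 beyond 100 kb. At a start of 40% to 60% the order was another, with introns at -16.4 ± 0.0239 points, promoters at -14.6 ± 0.140, exons at -14.0 ± 0.259 and intergenic CpGs at -13.0 ± 0.124.

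CpG density was counted as the CpGs of the genome within 100 bases each side, the CpG itself included. Methylated CpGs with 1 to 4 CpGs in that window differed by -8.63 ± 0.336 points, those with 5 to 8 by -7.74 ± 0.122, those with 9 to 12 by -6.89 ± 0.132 and those with 13 to 16 by -5.75 ± 0.0311. The order turned in the few CpGs of the densest windows, with -8.43 ± 0.227 points at 17 to 20 (380 CpGs) and -13.5 ± 2.11 at 21 or more (85 CpGs). It did not hold in every place either. In intergenic DNA outside imprinting control regions (ICRs, the DNA that carries parental methylation at imprinted genes), the difference was -8.83 ± 0.384 points at 1 to 4 CpGs (13288 CpGs), -5.48 ± 0.295 at 9 to 12 (4594), -2.39 ± 0.347 at 13 to 16 (1110) and -3.19 ± 1.10 at 17 to 20 (179). Dense methylated intergenic CpGs thus kept 97.2% of their level at 13 to 16 CpGs, against 89.5% at 1 to 4. In promoters outside ICRs it was -8.15 ± 0.373 points at 1 to 4 CpGs, -8.13 ± 0.245 at 9 to 12 and -10.9 ± 0.648 at 13 to 16 (402 CpGs). In exons the values at 1 to 16 CpGs lay between -7.11 and -7.88 points. Intergenic CpGs of 9 to 16 were lowered less than those of 1 to 4 on 18 of 18 autosomes, and intergenic CpGs of 13 or more less than promoter CpGs of that density on 16 of 18. Autosomes of the same libraries are not replicates, here and in the contexts below.

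The densest methylated promoter CpGs were few and rested on few genes. With 17 or more CpGs in the window there were 137 from the promoters of 39 genes, and 27 of them lay in the ICR at Plagl1, the imprinted gene of a zinc-finger protein. These 27 were at a mean of 75.8% and 58.3% in YP-mESCs and 3.60% and 5.00% in OP-mESCs. With ICRs kept in, promoter CpGs of 21 or more (44) differed by -25.8 ± 4.05 points, and without ICRs (28) by -10.9 ± 4.97. The order of sparse against dense CpGs also turned with the window, as 250 bases each side gave a sparse minus dense difference of 0.803 points in place of -2.88, where the dense group held 323 CpGs at 32 to 40 in the window. With groups of equal share in the wider window it was -3.0 points.

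**Figure D2:**
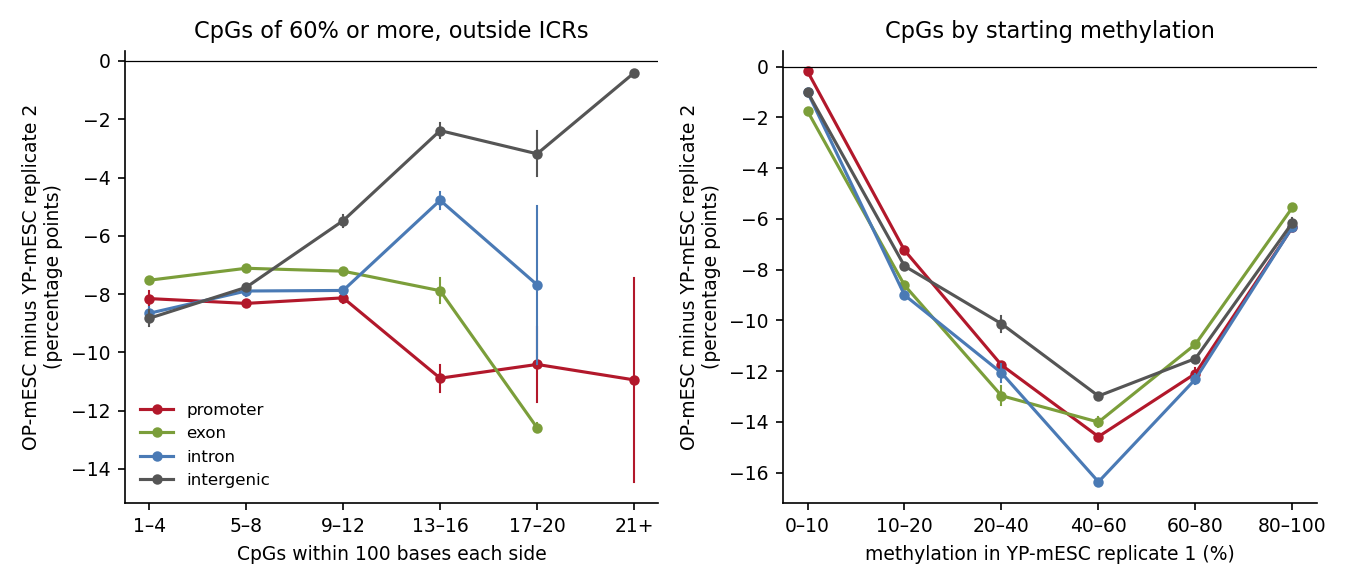
Difference between OP-mESCs and YP-mESC replicate 2 in percentage points, by number of CpGs within 100 bases each side for CpGs of 60% or more outside ICRs (left) and by starting methylation (right), in promoters, exons, introns and intergenic DNA. Points are means, vertical lines join the values of the 2 OP-mESC libraries, and groups under 20 CpGs are not drawn. The intergenic line goes from -8.83 points at 1 to 4 CpGs to -2.39 at 13 to 16, while the promoter line goes from -8.15 to -10.9.

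The bases beside the CpG also went with the size of the difference, read on the plus strand at methylated CpGs. Among the 16 combinations the difference was largest at TCGA, with -9.20 ± 0.0357 points (1679 CpGs). The context CCGC had -4.78 ± 0.186 points, and GCGC, the motif of highest starting level, had -4.85 ± 0.210 (2775 CpGs). GCGC was at 86.0% and 85.6% in YP-mESCs and 80.6% and 80.9% in OP-mESCs, and TCGA at 82.1% and 81.4% against 72.1% and 72.2%. GCGC was lowered less than TCGA on 18 of 18 autosomes, a pair picked from the 16 combinations after seeing the data. A C after the CpG went with -5.28 ± 0.233 points, an A with -7.59 ± 0.143 and a T with -7.68 ± 0.0688. The fall was smaller at C than at A on 18 of 18 autosomes. As both strands of a CpG were added together, a C after it on the plus strand is a G before it on the other. These values are thus not specific to the following base, and reverse complements count apart among the 16 combinations. With 5 to 8 CpGs in the window GCGC differed by -4.58 ± 0.0987 points and TCGA by -9.57 ± 0.0860. Starting level, which was higher at GCGC, was not held equal here, and its part in the gap was not tested.

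CCGG made up 52951 of the 89630 methylated CpGs and differed by -8.61 ± 0.246 points, against -6.74 ± 0.116 for all others. CCGG is a cut site commonly used for RRBS, and the enzyme of these libraries was not given in the sources used here. CpGs at fragment ends have their own biases in this assay, and their part in the CCGG value was not tested. Leaving CCGG out, a G after the CpG went with -6.76 ± 0.00279 points.

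Whether neighbouring CpGs changed together was read from pairs of CpGs, both at a YP-mESC mean of 20% or more, as the correlation of the difference of the replicates 1 at one CpG with the difference of the replicates 2 at the other. These 2 differences share no library. For a CpG with itself Pearson's r was 0.393 across 116291 CpGs. It was 0.361 for CpGs up to 20 bases apart and 0.308 for those over 50 and up to 100 bases apart. With distances over 200 and up to 500 bases it was 0.403, and outside ICRs 0.335. From there up to 1000 bases it was 0.210, from 1000 to 2000 bases 0.0822, and between 50 and 100 kb 0.0139. The difference within YP-mESCs and that within OP-mESCs, paired in the same way, gave r between -0.00536 and 0.0102 at these distances. CpGs are not independent replicates, pairs under about 50 bases share reads, and pairs share local base composition and depth, so that these values are a description.

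**Figure D3:**
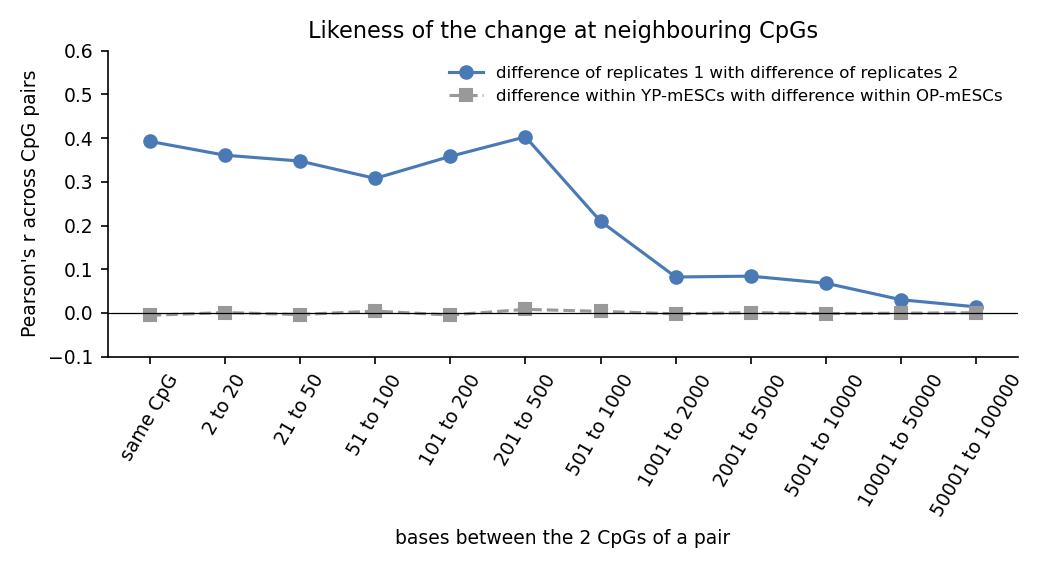
Pearson's r across pairs of CpGs of 20% or more in YP-mESCs, against the bases between them, for the passage difference in replicates 1 with that in replicates 2 (solid line) and for the differences within groups (dashed line). The solid line lies at 0.308 to 0.403 up to 500 bases and at 0.0822 or 0.0842 from 1 to 5 kb, and the dashed line between -0.00536 and 0.00820.

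Methylated CpGs were lower in both OP-mESC libraries on each of the 18 autosomes measured in all 4 libraries and on X, but not on Y. The difference was largest on chromosome 5, at -8.92 ± 0.269 points (7156 CpGs), and smallest on X, at -6.41 ± 0.269 (683 CpGs). Among autosomes, chromosomes 12 and 1 had the smallest values, at -7.08 ± 0.0757 and -7.11 ± 0.365 points. With the makeup by starting methylation and density held equal, chromosome 5 was at -8.84 points, chromosome 1 at -7.23 and X at -6.90. The 18 methylated CpGs on Y were at 86.6% and 85.2% in YP-mESCs and at 87.8% and 88.8% in OP-mESCs. On chromosome 13, read against YP-mESC replicate 1 alone, 14836 CpGs went from 26.6% to 23.2% and 23.4%. That difference of -3.27 points (SD 0.113) lay beside -3.36 points (SD 0.0651) over the other chromosomes in the same 3 libraries.

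Read depth differed between the groups on some chromosomes, and stands here because it moves with the group. Relative to the other autosomes, chromosome 1 had 1.35 to 1.42 times as many reads per CpG in OP-mESCs as in YP-mESCs over the 4 pairs of libraries. On chromosome 4 the stretch from 40 to 70 Mb had 1.40 to 1.43 times as many. On chromosome 14 the stretch from 60 to 80 Mb had 0.787 to 0.8003 times as many and that from 110 to 130 Mb 0.690 to 0.726 times. Smaller shifts of the same direction in all 4 pairs were seen elsewhere, as on chromosome 11, at 0.881 to 0.894, and on chromosome 8, at 0.916 to 0.933. Of 242 bins of 10 Mb, 3 were at 0.8 or less in all 4 pairs, all on chromosome 14, and 18 were at the reciprocal of that or more, 15 of them among the 19 bins of chromosome 1 and 3 on chromosome 4. The ratios between replicates of a group lay between 0.807 and 1.15 over these bins. Methylated CpGs of the chromosome 4 stretch differed by -6.78 ± 0.0286 points, against -8.27 ± 0.118 on the rest of that chromosome. Those of the 2 chromosome 14 stretches differed by -8.56 ± 0.627 and -8.38 ± 0.537 points, against -7.80 ± 0.119 and -7.96 ± 0.222 on the rest. DNA copy number was not measured, and passage cannot be told apart from these depth differences.

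**Figure D4:**
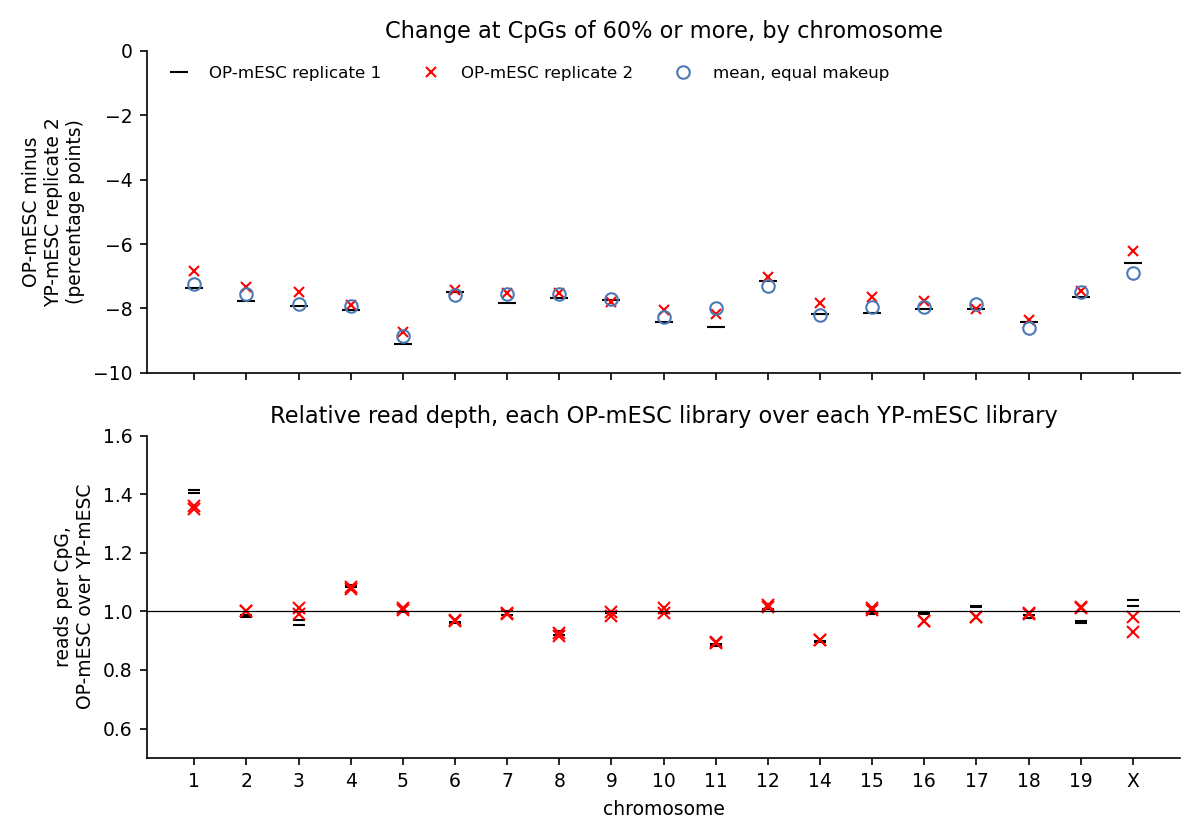
Above, difference between each OP-mESC library and YP-mESC replicate 2 in percentage points at CpGs of 60% or more by chromosome, with circles for the mean at equal makeup. Below, reads per CpG of each OP-mESC library over each YP-mESC library, relative to the other autosomes, where chromosome 1 stands at 1.35 to 1.42. Dashes are OP-mESC replicate 1, crosses replicate 2, and chromosomes 13 and Y are not drawn.

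At single CpGs, reads were compared with a binomial model with a shared overdispersion of 1.14, and a CpG was called at a Benjamini-Hochberg adjusted p under 0.05 and a difference over 25 points. Of 365703 CpGs, 9037 fell (2.47%) and 278 rose (0.076%). The CpGs that fell had a median of 65.5% and 65.8% in YP-mESCs and of 25% and 27.1% in OP-mESCs. After the fall, 3596 of them were below 20% in OP-mESCs. Those that rose went from medians of 31.9% and 28.6% to 75% and 74.9%, and 107 of them started below 20%. Of promoter CpGs 0.578% fell, of exon CpGs 4.76%, of intron CpGs 6.49% and of intergenic CpGs 5.16%. Most promoter CpGs were unmethylated in YP-mESCs and could not fall by over 25 points. These shares thus do not compare the places at equal starting level, and among methylated CpGs the mean fall was largest in promoters. Intergenic DNA held 132 of the 278 CpGs that rose. By chromosome the share that fell was 3.24% on chromosome 5 and 1.98% on chromosome 12, against 2.47% of all. The count of CpGs that fell depended on single libraries and was 4709 without YP-mESC replicate 1 and 5749 without OP-mESC replicate 2.

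Called CpGs no more than 500 bases apart were joined, which gave 5850 groups. Of the 691 groups with at least 3 called CpGs, 670 held only CpGs that fell, 15 only CpGs that rose and 6 both. These groups held 30.3% of the called CpGs, so that most calls stood alone or in pairs at this coverage. In the 20 ICRs, 63 of 134 CpGs fell and 1 rose, beside 2.47% and 0.076% of all CpGs. Most of all CpGs were unmethylated at the start and could not fall by over 25 points. The 2.47% is therefore not a share at the starting level of ICRs. The study reported loss at several ICRs, Plagl1 among them, from these same libraries, so this count is not independent evidence. At least 27 of the 134 lie at Plagl1, so that the share of ICR CpGs that fell rests in part on 1 locus. Of the 8 tested promoters that overlap an ICR, 3 fell, of 2 genes, and the median difference of the 8 was 2.51 points. Among all CpGs that started at 50% to 60%, 28.2% were lower than YP-mESC replicate 2 by more than 25 points, a measure without a test.

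Promoters with at least 5 CpGs were compared by their summed methylated and unmethylated reads with edgeR's quasi-likelihood test. Of 12728 promoters, 1089 of 1034 genes fell (8.56%) and 57 rose (0.448%). Most of these falls were small, as 651 of the promoters started below 10% in YP-mESCs, 322 fell by more than 10 points and 66 by more than 25. Of the rises, 11 were over 10 points and 2 over 25. Among the 930 promoters at 20% or more in YP-mESCs, 239 fell (25.7%) and 7 rose, and the median difference of all 930 was -8.41 points. The count of falls was 594 without YP-mESC replicate 1, 628 without YP-mESC replicate 2 and 537 without OP-mESC replicate 2, and that of rises 28 without YP-mESC replicate 1 and 21 without OP-mESC replicate 2. Values below are the percent of reads methylated over a promoter, YP-mESC replicates first, with edgeR's adjusted p over all promoters.

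The largest fall was at Plagl1, whose promoter is an ICR, from 75.1% and 57.0% to 3.37% and 3.52% (adjusted p = 1.57e-60). The next was in Mybl2, a transcription factor of the cell cycle, from 72.3% and 74.6% to 12.8% and 20% (adjusted p = 1.02e-11). Its window lies around an annotated start 20058 bases inside the gene, and the 3 called CpGs printed above are CCGG, CCGA and CCGG. Starts inside a gene made up 8 of the 15 promoters with the largest falls and 4 of the 10 with the largest rises, so that these windows are gene body DNA as much as promoters. Another was Atp9a, an ATPase of the family that moves phospholipids, which went from 63.7% and 65.9% to 17.1% and 13.8% (adjusted p = 2.32e-12).

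Tex19.1, a protein of germ cells and pluripotent cells, fell from 72.9% and 77.7% to 32.7% and 31.1% (adjusted p = 6.87e-10). In the printed window 9 of the 10 measured CpGs were called, and the one that was not, a GCGT, read 73.7% and 87.0% in YP-mESCs and 61.5% and 67.9% in OP-mESCs. Sohlh2, a helix-loop-helix factor of early germ cell differentiation, fell from 68.6% and 58.7% to 30.6% and 25.5% (adjusted p = 1.36e-09), and its 10 measured CpGs in the window were all called. Pramel1, of a gene family expressed in germ cells and early embryos, fell from 78.3% and 73.1% to 40.6% and 32.1% (adjusted p = 1.55e-07).

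Cdca7, which works with the remodeller Hells in the upkeep of DNA methylation, fell from 55.9% and 48.1% to 11.8% and 17.5% (adjusted p = 1.54e-07). The 6 called CpGs lie in and at the end of a coding exon near a start 8948 bases inside the gene, not at the gene's first start. Other internal starts with large falls were those of BC048403, from 57.0% and 46.3% to 12.5% and 8.30%, of the nucleoporin gene Nup62, from 66.8% and 58.6% to 17.7% and 27.9%, with called CpGs in a coding exon annotated to Il4i1 too, and of Fnbp1, from 54.6% and 56.0% to 22.1% and 18.4%. Rrp9, a protein of the U3 small nucleolar ribonucleoprotein, went from 57.9% and 57.8% to 28.2% and 16.7%, and Actn4, an actin crosslinker, from 53.7% and 48.1% to 11.7% and 19.7%. The remaining 3 were the non-coding or pseudogene transcripts Gm16220, Gm15542 and Gm17080, which differed by -48.8, -42.9 and -38.8 points. These overlap Gm5134, Psmd13 and Slc29a1, and these values and that of Nup62 cannot be assigned to one gene of each pair.

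The largest rise was at Clcn4-2, a chloride/proton exchanger, from 34.0% and 36.1% to 67.8% and 66.96% (adjusted p = 5.75e-13). The rise rests on the most covered of its 15 CpGs, as the mean of the CpGs' own differences was 16.03 points and that of the summed reads 32.3 points. The 7 CpGs of the printed window, all called, had means of 36.5% and 39.7% in YP-mESCs and 71.6% and 71.3% in OP-mESCs. These CpGs had up to 641 and 417 reads in YP-mESCs and up to 481 and 868 in OP-mESCs, far above the library medians of 23 to 36. The window has 1 exact copy in mm9, and whether reads of similar sequences were assigned to it was not tested. Lrrc8d, a subunit of volume-regulated anion channels, rose from 27.9% and 23.8% to 50.4% and 56.5% (adjusted p = 0.000818), and Tgfbr3, a co-receptor of TGF-β ligands, from 68.6% and 69.0% to 93.0% and 90.6% (adjusted p = 3.62e-05), both at internal starts. Nkx2-1, a homeobox factor of the thyroid, lung and forebrain, started lowest and rose from 2.59% and 2.28% to 22.7% and 18.2% (adjusted p = 7.67e-16). Phldb3 rose from 10.1% and 10.9% to 25.4% and 24.2%, and 1190002H23Rik from 32.8% and 26.0% to 52.3% and 52.8%. Of the other 4, the adenylate kinase Ak1 went from 43.7% and 47.1% to 67.8% and 71%, Gm8019 from 63.6% and 59.3% to 83.3% and 84.4%, BC066135 from 45.5% and 41.7% to 61.2% and 69.6%, and Adc from 12.01% and 8.79% to 18.9% and 32.7%. For 1190002H23Rik and Adc, too, the mean of the CpGs' own differences was smaller than that of the summed reads, at 14.3 against 23.1 points and 7.54 against 15.4 points. Ak1, Gm8019, BC066135, Adc and Lrrc8d each lost their call without at least 1 library, with edgeR's adjusted p up to 0.317.

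**Figure D5:**
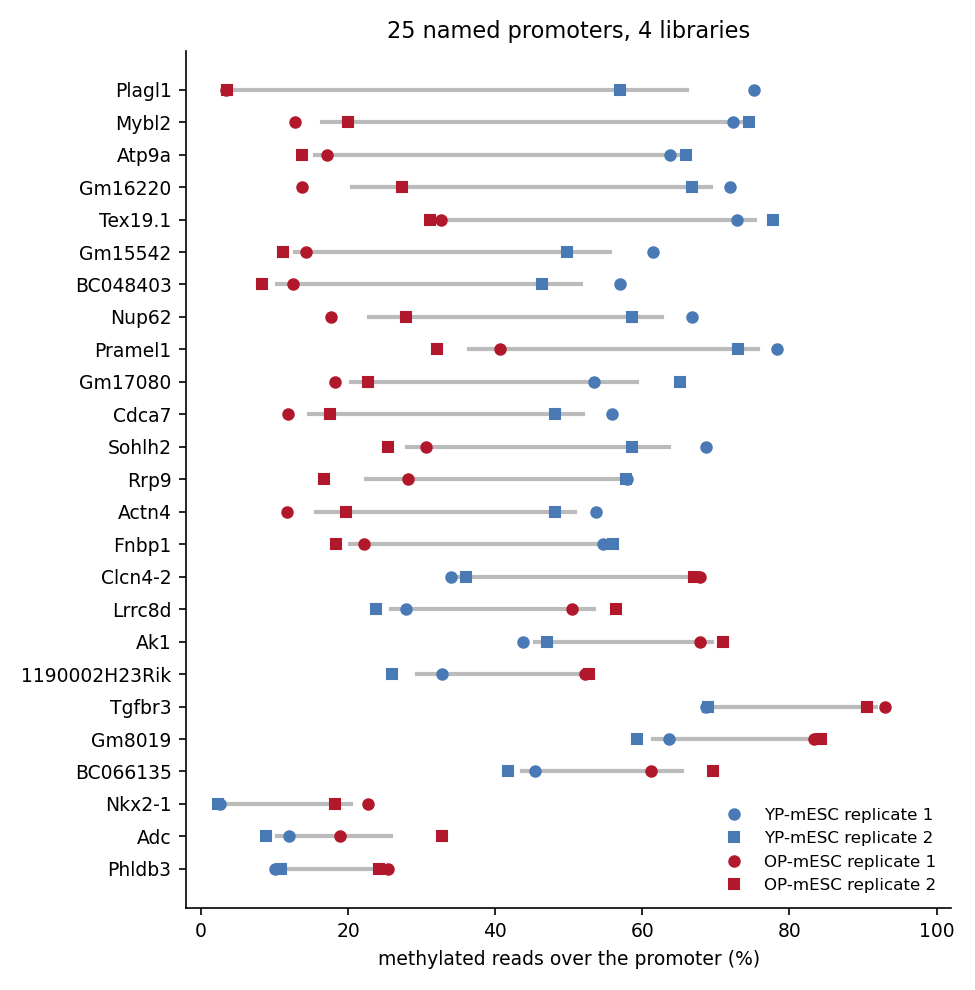
Percent of reads methylated over each of the 25 named promoters in the 2 YP-mESC libraries (blue) and the 2 OP-mESC libraries (red), with a grey bar between the group means. In all 25 both OP-mESC libraries lie on the same side of both YP-mESC libraries, as the choice of these promoters required, with Plagl1 at 3.37% and 3.52% the lowest in OP-mESCs.

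Genes of known roles were read from lists, with a gene counted when at least 1 of its promoters was called, and are described beside the 8.56% of all promoters that fell and the median difference of -0.0462 points over all promoters. In none of the lists did a promoter rise by edgeR or by limma, while at an unadjusted p under 0.05 between 0 and 4 promoters per list were higher. Of 16 measured germline genes, each with 1 promoter, 11 fell, with a median difference of -15.6 points. By limma 12 fell. Of the 13 at 20% or more in YP-mESCs, 10 fell, beside 25.7% of all promoters at that level. The list was chosen with earlier results of these data known. Sohlh2, Spo11, Taf7l and Dazl lie in regions the study chose on these libraries, so these counts are not independent evidence. Besides Sohlh2, the meiotic nuclease Spo11 fell from 65.7% and 72.4% to 35.9% and 37.7% (edgeR, adjusted p = 0.000278), and Taf7l, a testis form of a TFIID subunit, from 28.3% and 24% to 2.33% and 4.07% (adjusted p = 6.57e-06). The piRNA pathway gene Mael fell from 42.1% and 28.0% to 15.2% and 9.97% (adjusted p = 4.39e-06). Of the synaptonemal complex, Sycp3 fell from 36.1% and 34.1% to 16.8% and 14.9% (adjusted p = 0.000713) and Sycp1 from 55.1% and 59.6% to 30.3% and 41.6% (adjusted p = 0.00224). Tdrd1, Mei1, Slc25a31, Tex101 and Dazl also fell, with differences of -15.8, -13.6, -20.1, -15.5 and -5.85 points. Those without a call at 20% or more were Hormad1, at 58.7% and 66.0% against 49.8% and 48.0%, Mov10l1, at 86.6% and 84.4% against 86.6% and 79.9%, and Tdrd9, at 85.7% and 89.3% against 90.2% and 76.9%.

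The enzymes and readers of DNA methylation had unmethylated promoters for the most part. Of 12 measured genes 4 fell, by 4 of 23 promoters, and the median difference over promoters was -0.286 points. The promoters of the maintenance enzyme Dnmt1, at 0.156% and 0.569% against 0.119% and 0.134%, and of Dnmt3b, at 0.489% and 0.331% against 0.141% and 0.106%, were low in all 4 libraries. Both Dnmt3a promoters measured lay at 0.275% to 0.587%, and the 2 of Uhrf1, which brings Dnmt1 to DNA, between 0% and 7.67% with no call. The histone demethylase gene Kdm2b fell at a start inside the gene from 50.2% and 57.1% to 20.5% and 20.6% (edgeR, adjusted p = 2.68e-05), while its first promoter stayed at or under 0.382%. Mbd3, a methyl-CpG-binding domain protein, fell at an internal start from 16.1% and 10.3% to 2.77% and 3.06%, and Mbd1 and Tet3 fell with differences of -3.68 and -0.597 points.

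Of 13 pluripotency genes (15 promoters) and 17 mesoderm and endoderm factors (19 promoters) 0 were called by edgeR's test, with median differences over promoters of -0.153 and 0.0528 points. At an unadjusted p under 0.05, 1 pluripotency promoter was lower and 1 higher, and 3 mesoderm and endoderm promoters were lower, 1 of which passed by limma. Of 34 Wnt pathway genes 2 fell, by 3 of 48 promoters, Tcf7 from 7.41% and 6.42% to 2.95% and 3.87% and Tcf7l2 at a start inside the gene from 7.39% and 10.4% to 3.83% and 0.798%, both transcription factors that bind β-catenin. The β-catenin gene Ctnnb1 was at 0.273% to 0.412% and the Wnt target Axin2, at its first promoter, at 0.148% to 0.635% in all 4 libraries. Of 20 neural genes 3 fell, of which the neurofilament gene Nefm went from 37.7% and 44.4% to 5.42% and 9.23% (edgeR, adjusted p = 3.08e-16), the synaptic gene Snap25 from 27.8% and 25.9% to 11.2% and 9.82%, and the homeobox gene En1 from 18.1% and 14.6% to 7.85% and 2.45%. Of 29 Hox genes 1 fell, Hoxd3, from 12.6% and 17.5% to 7.53% and 3.02%. Of 8 trophoblast and extraembryonic genes Ascl2 and Sox7 fell, with differences of -1.79 and -3.39 points. Of 4 fibroblast and blood genes Vim fell, with -2.06 points at its unmethylated promoter (edgeR, adjusted p = 0.0485). Its methylated start inside the gene differed by 6.39 points without a call.

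Of 21 imprinted genes measured at a promoter 8 fell, by 11 of 31 promoters. Apart from Plagl1, the growth-factor adaptor gene Grb10 fell from 29.9% and 34.3% to 0.602% and 1.42% (edgeR, adjusted p = 5.93e-46), and Mest from 67.7% and 33.1% to 22.6% and 10.8% (adjusted p = 2.11e-05), where the YP-mESC replicates were themselves far apart. Igf2r, Cdkn1c, Gnas, Nespas and Magel2 fell with differences of -7.53 to -2.92 points from YP-mESC means of at most 13%. H19, at 82.9% and 86.9% against 84.6% and 83.5%, and Peg3, at 32.5% and 43.2% against 55.1% and 32.3%, were not called.

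Tiles of 1 kb with at least 3 CpGs were compared in the same way to cover what promoters leave out. Of 37004 tiles, 7545 fell (20.4%) and 248 rose (0.67%). Among the 19609 that touch no promoter, 5246 fell (26.8%) and 132 rose, and the median over them was 77.9% in YP-mESCs and 68.0% in OP-mESCs. The count of falls among all tiles was 4515 without YP-mESC replicate 1, and that of rises 104 without it and 148 without YP-mESC replicate 2 or OP-mESC replicate 2.

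The largest fall outside promoters was in an intron of Slc38a1, a transporter of neutral amino acids, from 84.1% and 90.5% to 15.8% and 20% over the 3 CpGs printed above (edgeR, adjusted p = 7.86e-18). In Spred2, an inhibitor of Ras signalling, a tile at chr11:19920001-19921000 fell from 77.8% and 86.9% to 19.3% and 21.9% (adjusted p = 1.04e-24). The Rnf220 intron, of a ubiquitin ligase gene, fell from 74.9% and 61.1% to 12.02% and 8.40% (adjusted p = 5.56e-28) at the 5 CpGs of the printed window. Intergenic tiles fell at chr8:47302001-47303000, 5363 bases from the start of the ADP/ATP carrier gene Slc25a4, from 64.9% and 59.4% to 6.17% and 3.33%, and at chr2:168919001-168920000 from 62.2% and 67.4% to 10.4% and 6.67%.

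The largest rise was intergenic, at chr5:74383001-74384000, from 33.2% and 27.1% to 86.1% and 85.2% (edgeR, adjusted p = 1.51e-22), and all 7 CpGs of the printed window rose. The next were at chr1:47238001-47239000, from 27.1% and 42.5% to 87.1% and 83.2% (adjusted p = 5.73e-13), and at chr6:39876001-39877000, from 33.3% and 30% to 81.3% and 69.6% (adjusted p = 4.85e-07). The windows of called CpGs in these last 2 tiles share an unbroken run of 41 bases, and this run has 114 exact copies on 20 sequences of mm9. Each of the windows as a whole has 1 exact copy. Whether reads of other copies were assigned to them was not tested.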

How the data were processed

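RRBS libraries were made with the NuGEN Ovation RRBS Methyl-seq kit, and the submitters' processing notes name CASAVA 1.8.2, Trim Galore 0.2.8, Bismark 0.7.9 and the mm9 genome. Which enzyme cut the DNA and whether duplicates were removed were not given in the sources used here. For each cytosine, the authors deposited a coverage in counts of reads and a methylation level in percent, with a minimum of 10 reads, and both strands of each CpG were added together here. Methylated counts were recovered from coverage and percent. Annotation was GENCODE vM1 on mm9 (95495 annotated starts of 37310 genes), repeats were not annotated, and 6 libraries (β-catenin shRNA mESCs and embryoid bodies) were not used.

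CpGs were binned by YP-mESC replicate 1, and baselines were taken from YP-mESC replicate 2. Single CpGs were tested with a binomial model, a likelihood ratio test and a shared overdispersion. Promoters (1 kb each side of a start, at least 5 CpGs) and 1 kb tiles (at least 3 CpGs) were tested with edgeR 4.0.16 (R 4.3.3) by the quasi-likelihood F test on methylated and unmethylated read sums, with Benjamini-Hochberg adjustment and a threshold of 0.05. The tests were tested on simulated data first. Alternatives used limma 3.58.1, Fisher's exact test, 20 reads, other windows, a replicate block and leaving out each library. Replicate numbers were not taken as pairs, as the deviations of same-numbered libraries correlated at -0.00207 over 60415 CpGs. Python 3.11.15, numpy 2.4.6, pandas 2.3.3, scipy 1.17.1 and matplotlib 3.10.9 were used.

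The comparison, strata and gene lists were chosen with earlier results of these data known. Some list genes lie in regions the study chose on these libraries, so that their direction is not independent evidence. Among them are Sohlh2, Spo11, Taf7l, Dazl, Nefm, En1, Kdm2b and Tet3, and the imprinted genes Plagl1, Grb10 and Igf2r. The promoters named are the 15 largest falls and 10 largest rises called, with both OP-mESC libraries on the same side of both YP-mESC libraries and 1 promoter per gene. The tiles named are the 5 largest falls and 3 largest rises outside promoters by the same rule, and list genes are named where called or as examples. Of the strata, density and starting level by place, the bases beside the CpG, likeness by distance, read depth by chromosome and the search for copies of the printed windows were added after seeing the data. Intervals of single CpGs cover counting error only, and duplicate reads would make them too narrow.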

Additional observations from a re-analysis of the deposited data

Results flagged for a closer look

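Read depth is outside the methylation measurement and differed between the groups. The 4 stretches that hold bins past the limits of 0.8 or its reciprocal are listed here, while smaller shifts, as on chromosomes 8 and 11, are not. Each value is the mean over the 4 pairs of an OP-mESC and a YP-mESC library, relative to the other autosomes. On chromosome 1 the OP-mESC libraries had 1.38 times as many reads per CpG as the YP-mESC libraries. The ratio was 1.42 at 40 to 70 Mb of chromosome 4, 0.794 at 60 to 80 Mb of chromosome 14 and 0.704 at 110 to 130 Mb of chromosome 14. Replicates of a group differed by 0.807 to 1.15 times over bins of 10 Mb. What set these ratios was not tested.

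Chromosome 13 had no CpG in YP-mESC replicate 2 and so took part in none of the comparisons in 4 libraries. Against YP-mESC replicate 1 alone its CpGs differed by -3.27 points in OP-mESCs, beside -3.36 points on the other chromosomes in the same libraries.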

How the results depend on the processing

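Of 315 alternative values of 47 results, 272 were labelled unchanged, 32 moved, 9 lost their call and 2 reversed. For methylation values, unchanged meant within the replicate SD, and for counts within a set fold range. For named promoters and tiles it meant the same direction and a kept call. These 33 make up most of the 47 results and were chosen because they were called here, so their kept calls are not independent support. Leaving out 1 OP-mESC library cannot move a methylation value past that SD. The count of CpGs that fell (9037) was 4731 at 20 reads, where 193233 CpGs were left to test, and 4709 to 7024 when 1 library was left out, with rises (278) at 145 and at 227 to 274. Promoter falls (1089) were 674 with at least 10 CpGs, 623 with 500 bases each side and 537 to 762 without 1 library, and rises (57) were 31, 35 and 21 to 46. Tile falls (7545) were 3039 with at least 5 CpGs and 4515 to 5596 without 1 library, and rises (248) were 126 and 104 to 194. With a replicate block the counts were 10257 and 356 for CpGs, 766 and 37 for promoters and 6788 and 189 for tiles, and the block changed the call of none of the 33 named promoters and tiles. By limma, promoters gave 876 and 54 and tiles 6615 and 255, and by Fisher's exact test CpGs gave 9367 and 290.

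The mean difference (-3.32 points) was -3.06 at 20 reads and -5.74 when CpGs were weighted by reads, and -3.36 to -3.27 without 1 library. Bins set by YP-mESC replicate 2 gave 45.0% left at 10% to 20%, -14.2 points at 50% to 60%, a promoter minus intergenic difference of -1.08 in place of -0.90, CCGG minus GCGC of -3.98 in place of -3.76, and largest minus smallest chromosome of -1.92 in place of -2.51, which was -1.94 at equal makeup. At 20 reads the share left was 43.2% at 10% to 20% and 91.8% at 80% to 90%. Promoter minus intergenic was -1.16 with 500 bases and -0.73 outside ICRs. Sparse minus dense (-2.88 points) reversed to 0.803 with 250 bases each side and to 0.966 with 250 bases outside ICRs, and was -3.0 with groups of equal share, an alternative added after seeing the data. Without 1 OP-mESC library these were 44.1% at 10% to 20%, 91.4% to 91.7% at 80% to 90% and -15.2 to -14.9 at 50% to 60%. Promoter minus intergenic was then -0.92 to -0.88, CCGG minus GCGC -3.79 to -3.74 and sparse minus dense -3.09 to -2.66, with the chromosome gap at -2.51. YP-mESC libraries were not left out of these strata, as they set the bins and the baseline. The cause of these shifts was not tested. At 20 reads 2.45% of CpGs fell, against 2.47% at 10, and 1.29% to 1.92% fell without 1 library.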

Other observations

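The other undifferentiated lines of the study were read at 340605 CpGs covered in all 10 libraries. They are compared with the same YP-mESC replicate 2, so that their differences share that library and are given side by side only. Mean methylation was 24.5% and 24.6% in YP-mESCs, 21.2% and 21.3% in OP-mESCs, 24.9% in both libraries of the first S33Y β-catenin clone, 23.8% and 23.6% in those of the second, and 27.2% in both control shRNA libraries. At CpGs of 60% or more (84024) the difference from YP-mESC replicate 2 was -7.71 points in OP-mESCs, 2.32 in the first S33Y clone, -1.48 in the second and 4.17 in the control shRNA cells. At CpGs that started at 10% to 20% it was -7.93, -2.65, -3.17 and 2.59 points, and at those of 50% to 60% -15.1, -0.621, -7.01 and 6.62 points. The second clone was thus below YP-mESC replicate 2 at half-methylated CpGs, while at 90% to 100% it differed by 0.175 points and OP-mESCs by -4.52. Methylated CpGs with 21 or more CpGs in the window (70) were at 77.1% and 70.3% in YP-mESCs, at 56.0% and 58.8% in OP-mESCs, at 86.7% and 85.2% in the first clone, at 77.4% and 75.0% in the second and at 85.7% and 84.5% in the control shRNA cells.

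The stretches of unequal read depth differed between these lines too, relative to YP-mESC replicate 2. Chromosome 1 was at 1.41 and 1.37 in OP-mESCs, 1.25 and 1.23 in the first S33Y clone, 0.995 and 0.986 in the second, and 1.42 and 1.45 in the control shRNA libraries. The chromosome 4 stretch was at 1.43 and 1.41 in OP-mESCs and between 0.969 and 1.04 in the other lines. On chromosome 14, where OP-mESCs were at 0.795 and 0.797 from 60 to 80 Mb, the second clone was at 1.17 and 1.16 and the control shRNA libraries at 1.49 and 1.51. On chromosome 1, methylated CpGs differed from YP-mESC replicate 2 by -6.93 points in OP-mESCs and 4.06 in the control shRNA cells. They differed by 3.02 points in the first clone and by -0.441 in the second. The lines differ in passage, clone or shRNA as well as in depth, and the part of each was not tested.

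The dense methylated promoter CpGs outside ICRs came from 38 genes, of which 32 had a lower mean in OP-mESCs than in YP-mESC replicate 2 and 6 a higher one. The 6 had 1 to 4 such CpGs each, and the highest difference was 20.2 points at the single CpG of Mgat4b, at 62.5% and 26.3% in YP-mESCs and 54.2% and 38.9% in OP-mESCs, so that the groups overlapped there. Those of Gm16280 (11 CpGs) were at 88.1% and 88.8% in YP-mESCs and 81.1% and 82.0% in OP-mESCs, and those of Gm13611 (6 CpGs) at 69.7% and 71.9% against 53.5% and 58.4%. At the meiotic gene Sycp1 the 5 such CpGs were at 84.1% and 86.7% in YP-mESCs and at 58.2% and 78.0% in OP-mESCs, so that the OP-mESC libraries differed from each other.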
